A study of Mus musculus with 8 samples.

Results

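The comparison set testes of 2 mutant libraries at 20 days after birth (20 dpp) against 1 control library at 10 dpp, to place the mutant testis beside a younger normal one. These 3 of the 8 libraries of the series were chosen by their labels. The mutants were Dnmt3C IAP/IAP, homozygous for an insertion of an intracisternal A particle (IAP), a retrovirus-like element of the mouse genome, in the gene of the DNA methyltransferase DNMT3C. The control was Dnmt3C IAP/WT, so it carried 1 copy of the same insertion and was not wild type. All animals were male, on a C3H/HeJ - C57BL/6J hybrid background, and whole testis RNA was sequenced, so germ cells and somatic cells were measured together. The 2 controls of 20 dpp (Dnmt3C IAP/WT) and the 1 mutant of 10 dpp (Dnmt3C IAP/IAP) were used to show how far a normal testis moved between the ages and how far the genotypes were apart at the start. In all, 16578 genes and 811 repeat families listed at both ages were measured.

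DNMT3C is a methyltransferase of the mouse and its relatives that silences the promoters of young retrotransposons in fetal male germ cells. After birth the germ cells enter meiosis in a first synchronous wave: spermatogonia divide, respond to retinoic acid, become spermatocytes, build the synaptonemal complex, break and repair their DNA, and pass through pachytene before they divide into spermatids. In the younger of these ages the wave has only reached the start of meiosis. In the older it has filled the tubules with pachytene cells. Sertoli cells, which nurse the germ cells, and Leydig cells, which make androgen, mature over the same days.

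Levels are given as scaled reads, the recovered read count of a gene divided by a library factor that makes the 6 libraries of 10 and 20 dpp comparable, and they compare libraries, not genes of different length. Differences are log2(scaled reads + 1) of the mutants minus that of the 10 dpp control, with the standard error (SE) and the adjusted p of limma. Libraries held 64884479 to 155742823 gene reads. The control arm of 10 dpp is 1 library, whose spread was taken from the pairs at 20 dpp. Age, genotype and library series (the libraries of the 2 ages carry names of different series) changed together and cannot be told apart in this comparison. In whole tissue, fewer cells of a type and less RNA per cell cannot be told apart either. No check of the genotype labels was made on Dnmt3c, which was not analysed here.

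The 20 dpp mutant testis lay nearer to the 10 dpp control than a normal testis of its own age did. Of all genes, 78.0% were within 2-fold of the 10 dpp control in the mutants, and 50.2% in the 20 dpp controls. The mutants were within 2-fold of the 20 dpp controls for 62.0% of genes. By limma, 1985 of 16578 genes were higher in the mutants than in the 10 dpp control (12%) and 1740 were lower (10.5%). Differences of at least 8-fold were fewer. With or without passing the test, 161 genes were that much higher in the mutants and 58 that much lower, and 156 and 55 of them passed. In the 20 dpp controls 1462 genes were at least 8-fold higher than in the 10 dpp control and 211 at least 8-fold lower. The 10 dpp mutant was within 2-fold of its control for 98.7% of genes.

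Genes that were far higher in the 20 dpp controls were raised much less in the mutants. To avoid shared libraries, genes were grouped by the 20 dpp controls against the 10 dpp mutant, and the 20 dpp mutants were then read against the 10 dpp control. In the 636 genes that were over 5 log2 units higher in the controls (median 6.68), the median difference of the mutants was 0.97, with quartiles of 0.30 and 1.79. It was 1.28 in mutant library 1 and 0.70 in library 2. In this group 48.7% of genes were within 2-fold of the 10 dpp control and 48.4% were at least 2-fold higher. Among genes that were lower in the 20 dpp controls, the mutants followed most where the fall was large. The 200 genes that were at least 3 log2 units lower in the controls (median -3.45) had a median of -2.24 in the mutants, and 94% of them were at least 2-fold lower. The 3618 genes that were 1 to 3 log2 units lower in the controls had a median of -0.66 in the mutants, with 68.8% within 2-fold of the 10 dpp control and 30.3% at least 2-fold lower.

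**Figure D1:**
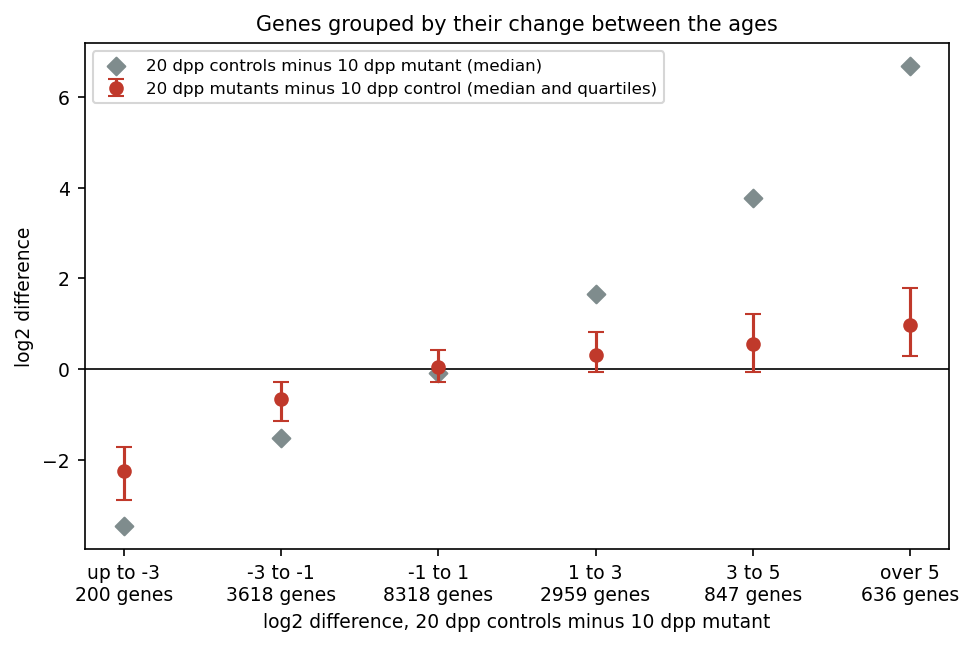
Genes were grouped on the x axis by the log2 difference of the 20 dpp controls from the 10 dpp mutant. Grey diamonds give the median of that difference, and red points give the median (bars: quartiles) of the 20 dpp mutants minus the 10 dpp control, which reached 0.97 in the group of 636 genes and -2.24 in the group of 200.

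Most axis genes of early meiosis rose in the mutants. Of 15 measured genes of meiotic cohesin, the chromosome axis and the synaptonemal complex, 12 rose and 0 fell, with a median difference of 1.28 against -0.0028 over all genes. The same list stood at a median of 2.35 in the 20 dpp controls, which are read against the same 10 dpp library here and below. Hormad1, a protein of unpaired chromosome axes, had 3295 scaled reads in the 10 dpp control, 23020.4 and 16296 in the mutants, against 32399 and 39034 in the 20 dpp controls. Both mutant libraries lay between the 2 control ages (difference 2.56 ± 0.22 SE, limma adjusted p = 0.00033). Sycp2, an axis component of the synaptonemal complex, went from 11386 in the 10 dpp control to 47889.8 and 47254 in the mutants (difference 2.06 ± 0.15, limma adjusted p = 0.00018) and stood at 119251 and 121256 in the 20 dpp controls. Sycp3, its partner on the axis, had 5405, then 31114 and 20829.7, against 34050.0 and 40907 in the older controls (difference 2.23 ± 0.24, limma adjusted p = 0.00076). For Hormad1, Sycp2 and Sycp3 the mutants had left the 10 dpp level and had not passed the 20 dpp level. Elsewhere in the list, 1 gene was at least 2-fold above the controls of both ages in both mutant libraries.

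The promoters of some genes of this list hold 2 short letter patterns, and 4 windows are shown, 3 with matches and 1 without, because these genes rose together. RefSeq windows (GRCm38.p6) of 300 bases, from 250 before to 50 after a start site, were searched on both strands for CACGTG, the E-box bound by MAX, and CNCCTCAG, the pattern bound by STRA8 and MEIOSIN. All 15 genes of the list had a window. CACGTG was in 8 of them (53.3%), against 8.09% of 27025 genes with a window, and CNCCTCAG in 6 (40%), against 9.12%. Among 12333 measured genes with a window the shares were 11% and 10.8%. Either pattern was in 9 of the 15 genes, and Sycp2, Smc1b, Rad21l, Syce1 and Syce3 rose and held neither. Other lists also had high shares, with CACGTG in 36.4% of piRNA genes and 33.3% of p53 genes, and CNCCTCAG in 37.5% of crossover genes (3 of 8), so neither pattern is called particular to the axis list. The first also stood in Syce2 and Fkbp6, and the second in the same 2 genes, although neither passed the test (differences 0.42 and 0.19, adjusted p = 0.0883 and 0.398). Of the 22 pachytene genes with a window, 0 held TGACGTCA, the cAMP response element, found in 2.03% of all genes with a window, and AAGGTCA, the half-site of NR5A1, was in 1 of 15 Leydig genes against 5.38% of all. A match is a description of letters, not a binding site. In the windows below capitals mark the matches: 2 of CACGTG for Hormad1 (first of its 2 windows, chr3:95559427-95559726, plus strand) and 2 for Sycp3 (chr10:88459337-88459636, plus strand), and 1 of each pattern for Sycp1 (chr3:102936051-102936350, minus strand). Sycp2 (chr2:178407609-178407908, minus strand) has no match and no capitals.
Hormad1: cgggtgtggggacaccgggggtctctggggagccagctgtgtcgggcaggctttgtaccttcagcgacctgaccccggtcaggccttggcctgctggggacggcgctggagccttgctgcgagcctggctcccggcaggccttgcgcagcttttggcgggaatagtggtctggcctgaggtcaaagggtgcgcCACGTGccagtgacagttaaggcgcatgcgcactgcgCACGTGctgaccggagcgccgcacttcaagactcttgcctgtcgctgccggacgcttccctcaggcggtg
Sycp3: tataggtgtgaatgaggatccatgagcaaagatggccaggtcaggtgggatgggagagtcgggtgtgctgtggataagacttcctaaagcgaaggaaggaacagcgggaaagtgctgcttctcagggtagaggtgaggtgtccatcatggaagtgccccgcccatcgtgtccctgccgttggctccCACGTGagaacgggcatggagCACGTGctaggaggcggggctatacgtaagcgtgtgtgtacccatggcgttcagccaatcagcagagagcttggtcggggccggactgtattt
Sycp1: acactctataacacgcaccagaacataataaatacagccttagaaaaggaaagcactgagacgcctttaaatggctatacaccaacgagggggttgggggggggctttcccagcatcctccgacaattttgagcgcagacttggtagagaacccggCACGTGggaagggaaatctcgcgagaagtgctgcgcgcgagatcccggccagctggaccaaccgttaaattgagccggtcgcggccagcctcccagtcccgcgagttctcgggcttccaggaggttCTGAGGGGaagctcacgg
Sycp2: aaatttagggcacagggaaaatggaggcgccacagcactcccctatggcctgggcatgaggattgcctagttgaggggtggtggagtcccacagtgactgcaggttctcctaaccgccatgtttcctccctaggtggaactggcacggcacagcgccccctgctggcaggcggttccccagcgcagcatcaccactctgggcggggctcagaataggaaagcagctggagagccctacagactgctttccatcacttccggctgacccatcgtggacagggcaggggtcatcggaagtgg

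Of 22 measured genes that make and repair meiotic DNA breaks, 12 rose, 0 fell and 10 did not pass, and 1, Prdm9, was at least 2-fold above both control ages (median difference 0.82, and 0.70 in the 20 dpp controls). Meiob, a single-strand DNA binding protein of meiotic recombination (chromosome 17, 24804289 to 24839788 in mm10), had 199 scaled reads in the 10 dpp control and 8674 and 5669 in the mutants, with 5391 and 6691 in the 20 dpp controls. The mutants and the older controls overlapped, and both were far above the younger control (difference 5.13 ± 0.29, limma adjusted p = 9.5e-05). Dmc1, the meiotic strand exchange recombinase, was highest in the mutants, with 2551 in the 10 dpp control, then 12255 and 9899.6, and 4841 and 5438 in the older controls (difference 2.11 ± 0.19, limma adjusted p = 0.00037). Prdm9, the histone methyltransferase that places the breaks, was at 1966 in the 10 dpp control and 1822 and 1892 in the 20 dpp controls, and at 6432 and 7861 in the mutants. Its lower mutant library was 3.27-fold above the highest control (difference 1.85 ± 0.20, limma adjusted p = 0.0008). Spo11, the enzyme that makes the breaks, stayed below the older controls: 272 in the 10 dpp control, 1832 and 1397 in the mutants, against 10997 and 10726 at 20 dpp (difference 2.55 ± 0.25, limma adjusted p = 0.00048).

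Regulators of meiotic entry were at or above the 10 dpp level. Of 12 measured, 7 rose and 0 fell (median 0.74, and 0.15 in the 20 dpp controls). Stra8, the retinoic acid target that starts meiosis, had 8426 scaled reads in the 10 dpp control and 8881 and 10359 in the mutants, and the difference of 0.19 ± 0.17 did not pass the test (limma adjusted p = 0.468). The 20 dpp controls were lower, at 3263 and 2903. Ccnb3, a cyclin of early spermatocytes (chromosome X, 6979652 to 7041619), stood apart from both ages. It had 1209.5 in the 10 dpp control and 1994 and 2252 in the 20 dpp controls, against 31859 and 14873 in the mutants (difference 4.17 ± 0.38, limma adjusted p = 0.00038). Gm1564, an earlier symbol of Meioc, which keeps cells in meiotic prophase, went from 5544 to 41699 and 27099 (difference 2.60 ± 0.24, limma adjusted p = 0.00039) and stood at 52566 and 55250.4 in the older controls.

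Crossover genes split. Of 11 measured, 4 rose and 0 fell, and the median of 0.25 lay far under the 1.94 of the 20 dpp controls. Msh5, which stabilises recombination intermediates, rose from 800.4 scaled reads in the 10 dpp control to 4539 and 4157 in the mutants, above the 3249.9 and 3689.5 of the older controls (difference 2.44 ± 0.21, limma adjusted p = 0.00029). Cntd1, needed for crossover maturation, rose from 374 to 4107 and 2604 but was far below the 26177 and 26226 of the older controls (difference 3.13 ± 0.27, limma adjusted p = 0.00029). Mlh3, which marks crossover sites in pachytene, was at 3868 in the 10 dpp control and 3435 and 3384 in the mutants (difference -0.18 ± 0.15, limma adjusted p = 0.424), against 14698 and 14905.

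**Figure D2:**
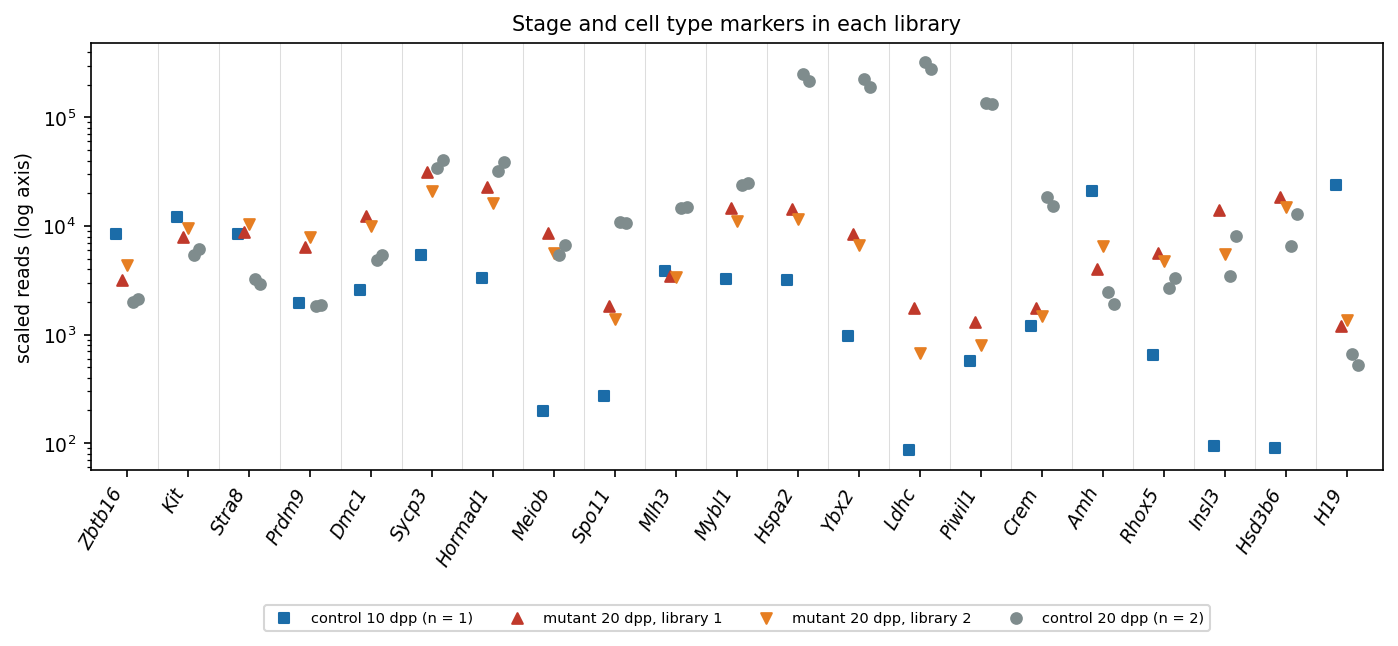
Scaled reads (log axis) of 21 stage and cell type markers in the 10 dpp control (square), the 2 mutants of 20 dpp (triangles) and the 2 controls of 20 dpp (circles). Prdm9 and Dmc1 were highest in the mutants, Spo11, Ybx2 and Ldhc lay between the ages, and Mlh3 stayed at the 10 dpp level.

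Pachytene genes were present in the mutants at a small part of their normal 20 dpp level. The pachytene list, which runs on into late spermatocytes, had 29 measured genes, of which 14 rose and 1 fell. The median difference was 1.17 in the mutants and 6.35 in the 20 dpp controls. Ldhc, the lactate dehydrogenase of spermatocytes and sperm (chromosome 7, 46861203 to 46878142), had 85.6 scaled reads in the 10 dpp control, 1771 and 679.9 in the mutants, against 322718 and 281839 in the 20 dpp controls. It rose over the younger control (difference 3.67 ± 0.46, limma adjusted p = 0.00146), with a log2 difference of 11.8 in the older controls. Ybx2, a germ cell RNA binding protein, went from 977 to 8494 and 6745, against 228195 and 190975 (difference 2.95 ± 0.19, limma adjusted p = 0.00014). Hspa2, a heat shock protein of the synaptonemal complex, went from 3156 to 14404 and 11564, against 252409.5 and 215083 (difference 2.03 ± 0.18, limma adjusted p = 0.00039). Mybl1, the transcription factor that turns on pachytene genes, came nearer to the older level: 3266 in the 10 dpp control, 14509 and 11135 in the mutants, against 23802 and 24772 in the 20 dpp controls (difference 1.96 ± 0.19, limma adjusted p = 0.00045). Tex101, a surface protein of germ cells, went from 4732 to 22331 and 21866, with 53301 and 56467 in the older controls (difference 2.22 ± 0.14, limma adjusted p = 0.00014). The 1 gene that fell was Cks2, a partner of cyclin-dependent kinases, from 4348 to 2125 and 1721, below the 6958 and 7241 of the older controls as well.

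The piRNA pathway, which makes small RNAs against transposons, had a median near the 10 dpp level. Of 27 measured, 2 rose and 3 fell, where 12% and 10.5% of all genes did. The median was 0.18 (0.084 without mutant library 1, and 2.21 in the 20 dpp controls), and members ran from -1.58 to 1.11. Piwil1, the pachytene PIWI protein, had 574 scaled reads in the 10 dpp control and 1308 and 802 in the mutants, and the difference of 0.83 ± 0.27 did not pass the test (limma adjusted p = 0.0579). The 20 dpp controls were at 134931 and 132327. Without mutant library 2 the Piwil1 difference was 1.20, from 1 mutant library against 1 control library. Gpat2, a piRNA factor of primary spermatocytes, rose from 4998 to 8206 and 9586 (difference 0.83 ± 0.16, limma adjusted p = 0.00883). Tex19.1, which restrains retrotransposons in germ cells, fell from 8885 to 5342 and 4619 (difference -0.84 ± 0.17, limma adjusted p = 0.0107), with 3570.4 and 3776 in the older controls.

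Of 19 measured spermatid genes, 4 rose, 0 fell and 15 did not pass (median 0.42, 0.71 without mutant library 2, and 5.25 in the 20 dpp controls). The lowest difference was -1.50, and 2 of the 19 were at least 2-fold below the controls of both ages in both mutant libraries. Spaca1, a protein of the acrosome, rose from 88.1 scaled reads to 591 and 541 (difference 2.67 ± 0.39, limma adjusted p = 0.00265), against 9398 and 5198 in the older controls. Crem, the activator of spermatid genes, was at 1203 in the 10 dpp control and 1763 and 1472 in the mutants (difference 0.42 ± 0.21, limma adjusted p = 0.183). A further 616 genes were listed only at 20 dpp. Against the controls of that age, 355 were at least 2-fold lower in the mutants, 233 of these at least 8-fold. A further 207 were within 2-fold and 54 were at least 2-fold higher. These genes may be listed through reads of the same 20 dpp controls, so the counts are a description and no conclusion is drawn from them. Prm1, which packs sperm DNA, was among the 233, at 842 and 406 scaled reads in the controls but only 10.2 and 5.3 in the mutants.

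In both spermatogonial lists more genes fell than rose, where over all genes 12% rose and 10.5% fell. The list of undifferentiated spermatogonia had 22 measured genes, of which 2 rose, 6 fell and 14 did not pass (median -0.97, and -1.97 in the 20 dpp controls), and of 11 of differentiating spermatogonia 2 rose, 3 fell and 6 did not pass (median -0.42, and -1.17 in the 20 dpp controls). The second median was -0.20 without mutant library 2 and -0.18 with both 10 dpp libraries as the reference. Zbtb16, a factor of spermatogonial self-renewal, had 8381 scaled reads in the 10 dpp control, 3174 and 4403 in the mutants, against 1985 and 2116 in the older controls (difference -1.16 ± 0.22, limma adjusted p = 0.00819). Ccnd2, a D-type cyclin of dividing spermatogonia, fell from 24514 to 5510.5 and 7419 (difference -1.94 ± 0.22, limma adjusted p = 0.00093). Kit, the receptor of differentiating spermatogonia, was at 12156 and then 7845 and 9664, a difference of -0.48 ± 0.18 that did not pass (limma adjusted p = 0.0883). Without mutant library 2 the Kit difference was -0.62, from 1 mutant library against 1 control library. Members that rose against the list included Id4, an inhibitor of differentiation, from 551 to 1769 and 1732, whose 20 dpp controls were higher still at 8315 and 9274, and Taf4b, a germ cell transcription cofactor, from 7956 to 18155 and 16046, above both control ages.

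**Figure D3:**
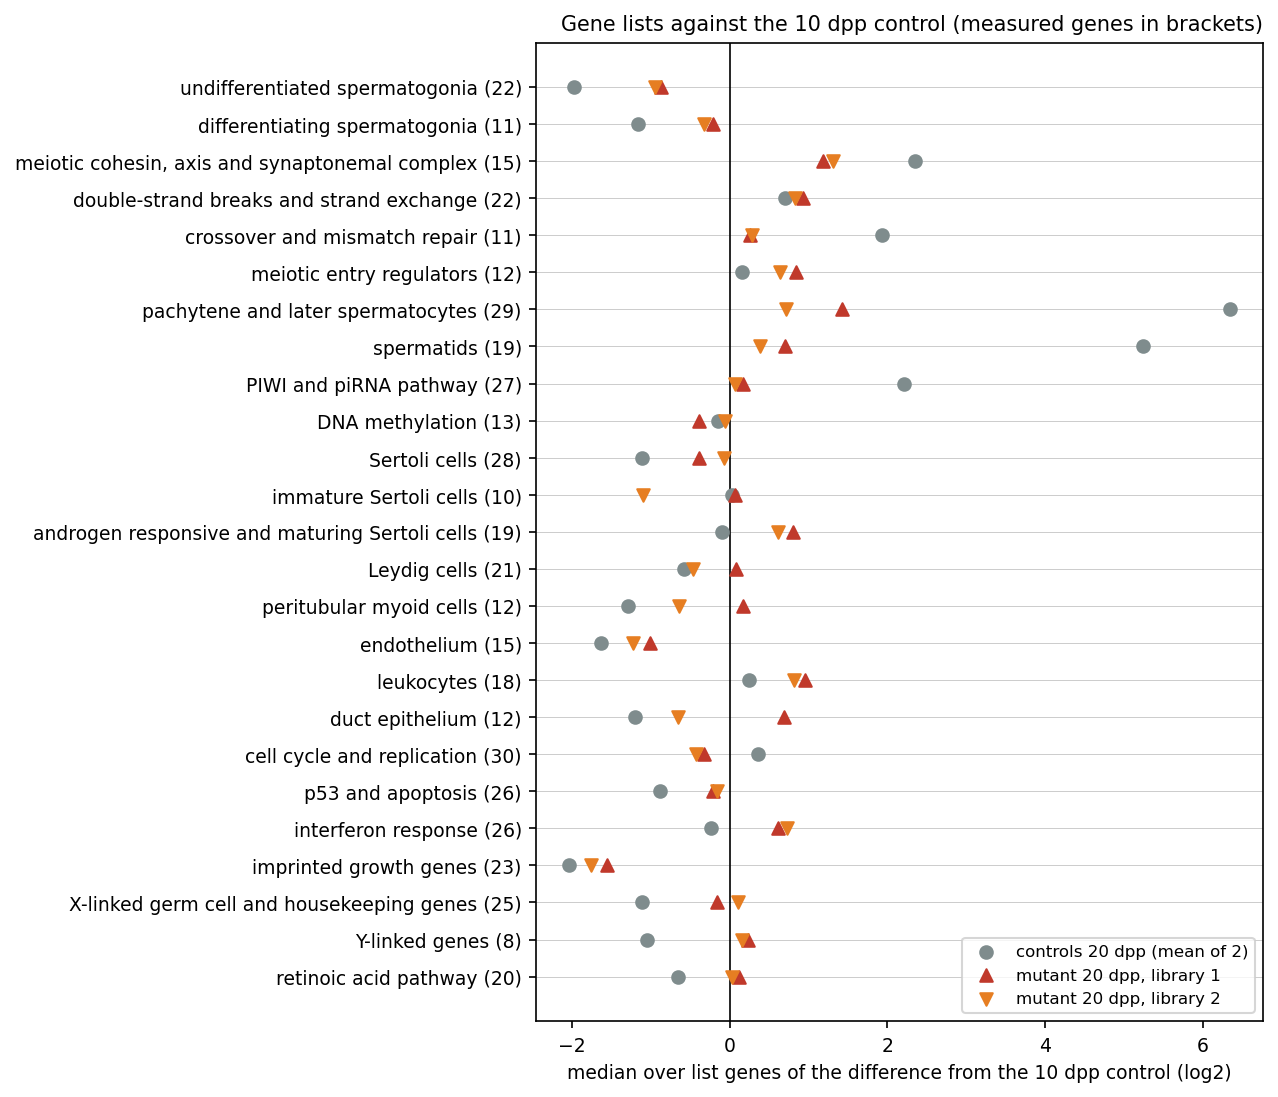
For each gene list but the erythroid one, with only 4 genes (measured genes in brackets), the x axis gives the median log2 difference from the 10 dpp control in each 20 dpp mutant library (triangles) and in the mean of the 2 controls of 20 dpp (circles). The controls reached 6.35 for pachytene genes and the mutants a median of 1.17, while both were below 0 for imprinted growth genes and endothelium.

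The list of androgen responsive and maturing Sertoli cells had more rises than falls. Of its 19 measured genes, 10 rose and 2 fell (median 0.75, and -0.10 in the 20 dpp controls). Aqp8, a water channel (chromosome 7, 123462291 to 123468004), made the largest rise among the named genes: 17.6 scaled reads in the 10 dpp control, 7549 and 4509.6 in the mutants, against 3400.1 and 4917 in the 20 dpp controls (difference 8.29 ± 0.40, limma adjusted p = 4.8e-05). Rhox5, an androgen-driven homeobox gene, went from 644 to 5657 and 4711, above the 2708 and 3292 of the older controls (difference 3.0 ± 0.23, limma adjusted p = 0.0002). Corin, a membrane protease, went from 476 to 9038 and 7695 (difference 4.13 ± 0.20, limma adjusted p = 4.8e-05). Cdkn1c, of the same list, fell from 1767 to 847 and 862, with 754 and 957 in the older controls. Its difference was -1.05 ± 0.27 (limma adjusted p = 0.0271, and 0.0617 without the variance trend). Amh, the hormone of immature Sertoli cells, fell from 20927 to 3974 and 6594, with 2455 and 1893 in the older controls (difference -2.03 ± 0.29, limma adjusted p = 0.00254). Of the 10 measured genes on the list of immature Sertoli cells 2 rose and 2 fell. Thra, a thyroid hormone receptor, fell from 17831 to 4020.3 and 5702, while Nr0b1, a nuclear receptor, rose from 3988 to 8546 and 9786.

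The general Sertoli list moved both ways. Of 28 measured genes 7 rose and 7 fell, where 12% and 10.5% of all genes did (median -0.24, and -1.12 in the 20 dpp controls). Members ran from -3.70 to 5.56. In both mutant libraries 2 were at least 2-fold above both control ages and 1 at least 2-fold below. The members named next all rose. Tsx, a Sertoli transcript of the X chromosome (103414467 to 103424580), was at 305 scaled reads in the 10 dpp control and 15229.7 and 13679.9 in the mutants, above the 5622 and 6115 of the older controls (difference 5.56 ± 0.19, limma adjusted p = 1.9e-05). Espn, which bundles actin at Sertoli junctions, rose from 6638 to 30869 and 38538 (difference 2.38 ± 0.17, limma adjusted p = 0.0002). Cldn11, the claudin of the blood-testis barrier, rose from 31239 to 53418 and 59968 (difference 0.86 ± 0.16, limma adjusted p = 0.00697). The summed level of the 28 genes was 871900 scaled reads in the 10 dpp control, 932100 and 1012000 in the mutants, but 480000 and 514900 in the 20 dpp controls.

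Of 21 measured Leydig genes 3 rose and 4 fell, where 12% and 10.5% of all genes did. Their median was -0.04 in the mutants (-0.45 without mutant library 1) and -0.58 in the 20 dpp controls. Their summed level was 138400 scaled reads in the 10 dpp control, 167400 and 123600 in the mutants, with 83790 and 151600 in the 20 dpp controls. Insl3, a hormone of mature Leydig cells (chromosome 8, 71689214 to 71690575), had 94.4 in the 10 dpp control and 14124 and 5485 in the mutants, with 3447 and 8042 in the 20 dpp controls (difference 6.53 ± 0.59, limma adjusted p = 0.00039). Hsd3b6, the steroid dehydrogenase of adult Leydig cells (chromosome 3, 98805504 to 98814443), went from 90.6 to 18621 and 15051, with 6548 and 12940.5 in the older controls (difference 7.51 ± 0.36, limma adjusted p = 4.8e-05). For both genes the mutants and the older controls were far above the younger library. Thbs2, an extracellular matrix protein, fell from 7863 to 286 and 467 (difference -4.42 ± 0.37, limma adjusted p = 0.00027). Cyp17a1, a shared enzyme of androgen synthesis, was at 13864 and then 21327 and 10026, a difference of 0.08 ± 0.50 that did not pass (limma adjusted p = 0.924).

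Imprinted growth genes were lower in the mutants than in the 10 dpp control. Of 23 measured, 0 rose and 16 fell (median -1.62, and -2.04 in the 20 dpp controls). H19, a noncoding RNA of fetal and newborn tissue (chromosome 7, 142575529 to 142578143), fell from 23643 scaled reads to 1204 and 1349, with 658 and 523 in the older controls (difference -4.21 ± 0.22, limma adjusted p = 5.8e-05). Dlk1, a membrane ligand of growing tissues, fell from 18680.5 to 1396 and 1414, against 873 and 858 (difference -3.73 ± 0.18, limma adjusted p = 4.8e-05). Igf2, a fetal growth factor, fell from 16449 to 4088 and 4850.5 (difference -1.89 ± 0.28, limma adjusted p = 0.00305). The 10 dpp mutant was close to its control for H19 (21729) and Dlk1 (18534).

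Of 15 measured endothelial genes 0 rose, 7 fell and 8 did not pass (median -1.11). Kdr, the VEGF receptor of endothelium, fell from 3713 scaled reads to 632 and 875 (difference -2.32 ± 0.29, limma adjusted p = 0.00139), and the older controls were at 859.7 and 705. Of 18 leukocyte genes 5 rose, 0 fell and 13 did not pass (median 0.91, and 0.24 in the 20 dpp controls). Mrc1, a receptor of tissue macrophages, rose from 4231 to 10617 and 10567, with 7414 and 8415 in the older controls (difference 1.32 ± 0.16, limma adjusted p = 0.00123), and Ptprc, the general leukocyte antigen, did not pass at 346, then 308 and 417 (adjusted p = 0.938). Of 12 peritubular myoid genes 0 rose and 1 fell, Ptch1, the hedgehog receptor, from 11151 to 2776 and 4363. The summed myoid level was 142400 in the 10 dpp control and 139400 and 69430 in the mutants, so the 2 mutant libraries differed. None of the 4 measured erythroid genes passed. Duct epithelium markers were uneven between single libraries. Of 12 measured 2 rose and 1 fell, Cdh16, a kidney and duct cadherin, which was at 968 in the 10 dpp control but at 90.2 in the 10 dpp mutant and 247 and 84.8 in the 20 dpp mutants. With both 10 dpp libraries as the reference its difference was -1.03 (limma adjusted p = 0.43). Spink8, another duct marker, was at 1115 in the 10 dpp control and at 10017 and 33.6 in the mutants. What part duct tissue had in other differences was not tested.

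Several groups of genes stood outside both control ages. In 180 of 16578 genes (1.09%) both mutant libraries were at least 2-fold above all 3 control libraries, and in 187 (1.13%) at least 2-fold below them. This is a description without a test, and the counts were 383 and 380 without mutant library 1, 410 and 336 without mutant library 2, and 308 above without 20 dpp control library 2. Zfy2 and Zfy1, zinc finger genes of the Y chromosome that act in meiosis, belonged to the first group. Zfy2 (2106015 to 2170409) had 262 scaled reads in the 10 dpp control, 5320.4 and 3148 in the mutants, against 968 and 819.9 in the older controls (difference from the 10 dpp control 3.96 ± 0.35, limma adjusted p = 0.00037). Zfy1 had 413, then 4490.4 and 2330.3, and 684 and 784 in the older controls. Of the 8 measured Y-linked genes 3 rose and 2 fell, Kdm5d and Uba1y. On the X chromosome 6 of 25 listed genes rose and 3 fell (median 0.01, and -1.12 in the 20 dpp controls). Tktl1, a transketolase-like protein of germ cells, rose from 4975 to 14033 and 10845, while the older controls had only 2565 and 3060.2. Atrx, a chromatin remodeller, fell from 36581 to 17469.8 and 22107, with 7897 and 7912 in the older controls.

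Interferon response genes were among those above both ages. Of 26 measured 6 rose and 1 fell (median 0.56, and -0.24 in the 20 dpp controls), and 5 were outside both ages. Oas2, a sensor of double-stranded RNA, had 131 scaled reads in the 10 dpp control, 623 and 563 in the mutants, against 139 and 110.4 in the older controls (difference 2.17 ± 0.43, limma adjusted p = 0.00953). Xaf1, an interferon-induced cell death factor, had 437, then 1261 and 1392, against 342 and 391.8 (difference 1.60 ± 0.31, limma adjusted p = 0.00939). Ifit2 went the other way, from 879.7 to 263 and 355 (limma adjusted p = 0.0336, and 0.0505 without mutant library 1). Among 26 p53 and apoptosis genes 4 rose and 5 fell, where 12% and 10.5% of all genes did. The median was -0.10 (-0.20 without mutant library 2, and -0.89 in the 20 dpp controls). The lowest member was at -1.79, and the 2 members named next both rose. Cdkn1a, the p53 target that halts the cell cycle, rose from 481 to 2473 and 1990.3, with 901 and 1197 in the older controls (difference 2.20 ± 0.30, limma adjusted p = 0.00205). Sesn2, a stress response gene, rose from 3968 to 11611 and 14948, with 8598 and 8452 in the older controls.

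The widest margins beyond both ages were as follows. Above, Pkhd1 had 7.85-fold between the lower mutant and the highest control, Ccnb3 6.6-fold, Mrap2 6.02-fold (limma adjusted p = 0.0233, and 0.0591 without mutant library 1), Apob 4.85-fold and Cd209c 4.5-fold. Pkhd1, a ciliary protein of kidney tubules, had 112 scaled reads in the 10 dpp control, 929 and 886 in the mutants, and only 88.7 and 54.5 in the older controls. Cd209c, a C-type lectin, was also high in the 10 dpp mutant, at 3062 against 909.9 in its control. Below were Col9a1, A2m, Mgat4c and Mas1. Mas1, an angiotensin peptide receptor, had 74.3 in the 10 dpp control and 2210.0 and 866 in the older controls, against 10.8 and 12.4 in the mutants.

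Over all genes 12% rose and 10.5% fell, and the next counts are read against these shares. Of 30 cell cycle and replication genes 2 rose and 11 fell (median -0.34, and 0.35 in the 20 dpp controls). Ccnb1, the mitotic cyclin, fell from 7607 scaled reads to 2971 and 2141 (difference -1.59 ± 0.22, limma adjusted p = 0.00221), Bub1, a spindle checkpoint kinase, rose from 9861 to 20883 and 19618, and Mki67, the proliferation marker, was at 37318, then 37519 and 41979 (limma adjusted p = 0.706). Of 13 DNA methylation genes 0 rose and 3 fell: Uhrf1, Dnmt3b, a de novo methyltransferase, from 8269.9 to 4104 and 4847, and Tet1, an enzyme that oxidises methylcytosine, from 2645 to 864 and 1482 (limma adjusted p = 0.034, and 0.053 without mutant library 1). Dnmt3b neighbours Dnmt3c on chromosome 2, and whether the paralogs shared reads was not tested. Of 20 retinoic acid pathway genes 0 rose and 1 fell (median 0.03, and 0.12 without mutant library 2), Stra6, the receptor for retinol binding protein, from 4863 to 2450.0 and 3174 (limma adjusted p = 0.0423, and 0.0631 without mutant library 1).

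Other leading changes were not on a list. Kctd19, a meiotic chromatin factor, rose from 59.2 scaled reads to 6649 and 4416, against 83602 and 73408 in the 20 dpp controls (difference 6.49 ± 0.26, limma adjusted p = 2.6e-05). Trpc5os (75.5, then 9946 and 7190.5), Olig1 (13.8, then 1183 and 979) and Kndc1 (85.6, then 5313 and 6018) also led the rises, and the older controls were raised for each. Sel1l3 led the falls, from 14642 in the 10 dpp control and 15666 in the 10 dpp mutant to 237 and 473 (difference -5.45 ± 0.41, limma adjusted p = 0.0002). The 20 dpp controls were lower still for Sel1l3, at 174.5 and 136.9. Ndnf, Upk3b, Tubb2b, AW551984 and Slc1a6 fell by 4.31 to 5.01 log2 units, and the 20 dpp controls were also far below the 10 dpp control for each.

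Repeat families were raised against the 10 dpp control. Transposable elements are silenced by DNA methylation in the germ line, and LINE-1 elements copy themselves through RNA, as do IAP and other retroviruses of the genome flanked by long terminal repeats (LTRs). Of 811 families 140 were higher in the mutants (17.3%) and 21 lower (2.59%), with a median difference of 0.56 over all families. The median was 0.46 in the 20 dpp controls, read against the same 10 dpp library. Family reads were 3.31% of all reads in the 10 dpp control, 5.52% and 5.12% in the mutants, but 2.51% and 2.34% in the 20 dpp controls. In 17 families (2.1%) both mutant libraries were at least 2-fold above all 3 control libraries, and in 0 (0%) at least 2-fold below them. Families with similar sequence can share reads. No family's sequence is printed, because the reference tables hold none.

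Young LINE-1 families rose, and 3 of the 6 were among the 17 families above both control ages. In all 5 rose and 0 fell (median 2.11, and 0.29 in the 20 dpp controls). Their share of family reads was 7.90% in the 10 dpp control, 10.9% in the 10 dpp mutant, 33.8% and 16.7% in the 20 dpp mutants, and 7.99% and 7.22% in the 20 dpp controls. L1Md_T, an active LINE-1 family, had 87074 scaled reads in the 10 dpp control and 153703 in the 10 dpp mutant. It had 788626 and 468954 in the 20 dpp mutants and 79499 and 61154 in the 20 dpp controls (difference 2.80 ± 0.31, limma adjusted p = 0.00042). The 10 dpp control was a little above both 20 dpp controls, and the lower mutant library was 5.39-fold above the highest of these 3. L1Md_Gf, another young family, went from 1804 to 26372 and 18750.2, with 3104 and 2082 in the older controls (difference 3.62 ± 0.28, limma adjusted p = 5.3e-05). L1Md_F2 rose less, from 72275 to 178405 and 140010.1 (difference 1.13 ± 0.22, limma adjusted p = 0.00863), and L1Md_F3 did not pass, at 34912, then 42250.1 and 27358 (adjusted p = 0.923).

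The 2 mutant libraries differed by which element was high. L1Md_A, the LINE-1 family with A-type promoters, had 26746 scaled reads in the 10 dpp control, 548841 in mutant library 1 and 92011 in mutant library 2, which were 5.96-fold apart (difference 3.07 ± 0.80, limma adjusted p = 0.0287). The difference was 1.80 without library 1 and 4.37 without library 2, and the call was lost without the variance trend (limma adjusted p = 0.113). IAPEz-int, the internal part of the most abundant IAP family, was ordered the other way. It had 94126 in library 1, at the level of the 10 dpp control (93814), and 321572 in library 2, at the level of the 10 dpp mutant (322099). The 20 dpp controls had 59371 and 52814, and the difference of 0.89 ± 0.56 from the 10 dpp control did not pass (limma adjusted p = 0.3). Without library 1 the difference was 1.79, but this sets 1 mutant library against 1 control library, so no p is given. The IAPEz-int difference passed with the families fitted apart from the genes (limma adjusted p = 0.00346). Nothing in the labels tells the 2 mutant libraries apart.

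**Figure D4:**
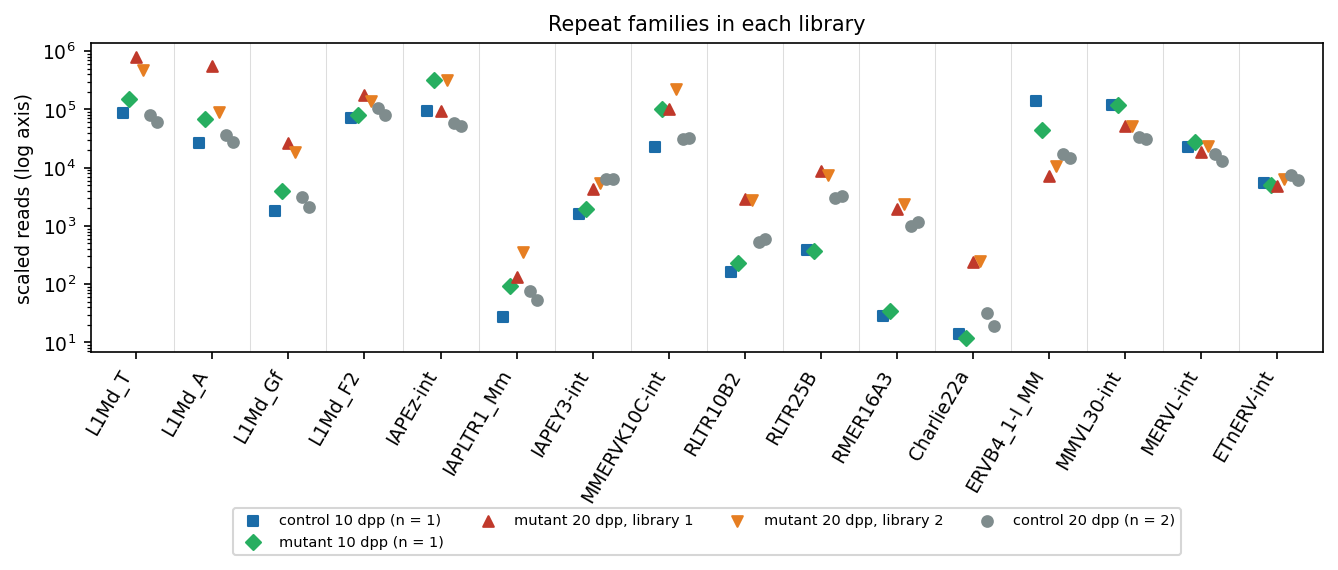
Scaled reads (log axis) of 16 repeat families in the 10 dpp control and mutant, the 2 mutants of 20 dpp and the 2 controls of 20 dpp. L1Md_T and L1Md_Gf were highest in both 20 dpp mutants, L1Md_A was 5.96-fold apart between them, and IAPEz-int was high in the 10 dpp mutant and in mutant library 2.

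Other endogenous retroviruses rose, some of them to levels that the 20 dpp controls also had. Of 25 IAP families 14 rose and 1 fell, IAP1-MM_I-int, from 6699 scaled reads to 2922 and 3701. Their median was 1.69 in the mutants and 1.44 in the 20 dpp controls. IAPEY3-int, an IAP-like family, was at 1605 in the 10 dpp control, 4291 and 5399 in the mutants, but higher, 6288 and 6375, in the older controls. The MMERVK10C and RLTR10 group held 12 families, and 9 of them rose and 1 fell (median 1.63, and 1.34 in the 20 dpp controls). RLTR10B2, an LTR of this kind, was at 162 in the 10 dpp control, 2925 and 2823 in the mutants, against 521 and 585 in the older controls, so the mutants were 4.82-fold above the highest control (difference 4.14 ± 0.30, limma adjusted p = 5e-05). MMERVK10C-int, an internal part, went from 23054 in the 10 dpp control to 102268 and 220433 (difference 2.70 ± 0.37, limma adjusted p = 0.00133). The 10 dpp mutant already had 100643, and with both 10 dpp libraries as the reference the difference of 1.64 did not pass (limma adjusted p = 0.065).

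The largest rise of a family was RMER16A3, an old LTR, from 28.9 scaled reads in the 10 dpp control to 1981 and 2353 in the mutants, with 989.9 and 1166 in the 20 dpp controls (difference 6.17 ± 0.36, limma adjusted p = 3.1e-05). RLTR25B, another LTR, went from 394 to 8876 and 7476, above the 2981 and 3319 of the older controls. Charlie22a, a DNA transposon, had 13.8, then 237 and 251, against 31.5 and 18.9, a margin of 7.32-fold that was the widest of the 17 families. ERVB4_1-I_MM fell most, from 139959.5 in the 10 dpp control to 7132 and 10709 (difference -4.00 ± 0.24, limma adjusted p = 3.1e-05). The 10 dpp mutant was also lower, at 44822, as were the 20 dpp controls at 16885 and 14373. MMVL30-int, a VL30 retrovirus, fell from 120471 to 52639 and 52918. MERVL-int and ETnERV-int did not pass (limma adjusted p = 0.743 and 0.923), at 22788 and 5417 in the 10 dpp control.

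SINEs, short elements that are copied by the machinery of LINE elements, rose in every family of 2 of their 3 groups, which were high in the 20 dpp controls as well. All 15 B1 families rose (median 2.18, and 1.85 in the 20 dpp controls), as did all 13 B4, ID and MIR families (median 1.78, and 1.74). B1_Mm, for example, chosen after its values were seen, had 5658 scaled reads in the 10 dpp control and 5042 in the 10 dpp mutant. It had 27136 and 29581 in the 20 dpp mutants and 22033 and 19680.4 in the 20 dpp controls. Of the 5 families of B2 and B3, by contrast, 2 rose (B3 and B3A), 1 fell (B2_Mm1a, by 0.65, limma adjusted p = 0.0155) and 2 did not pass (median 0.58, and 0.05 in the 20 dpp controls). The level of B1_Mm thus followed the age and the library series, which cannot be told apart. Of 295 other LTR families 21 rose and 4 fell (median 0.41), and of 122 other LINE-1 families 7 rose and 4 fell (median 0.22).

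**Figure D5:**
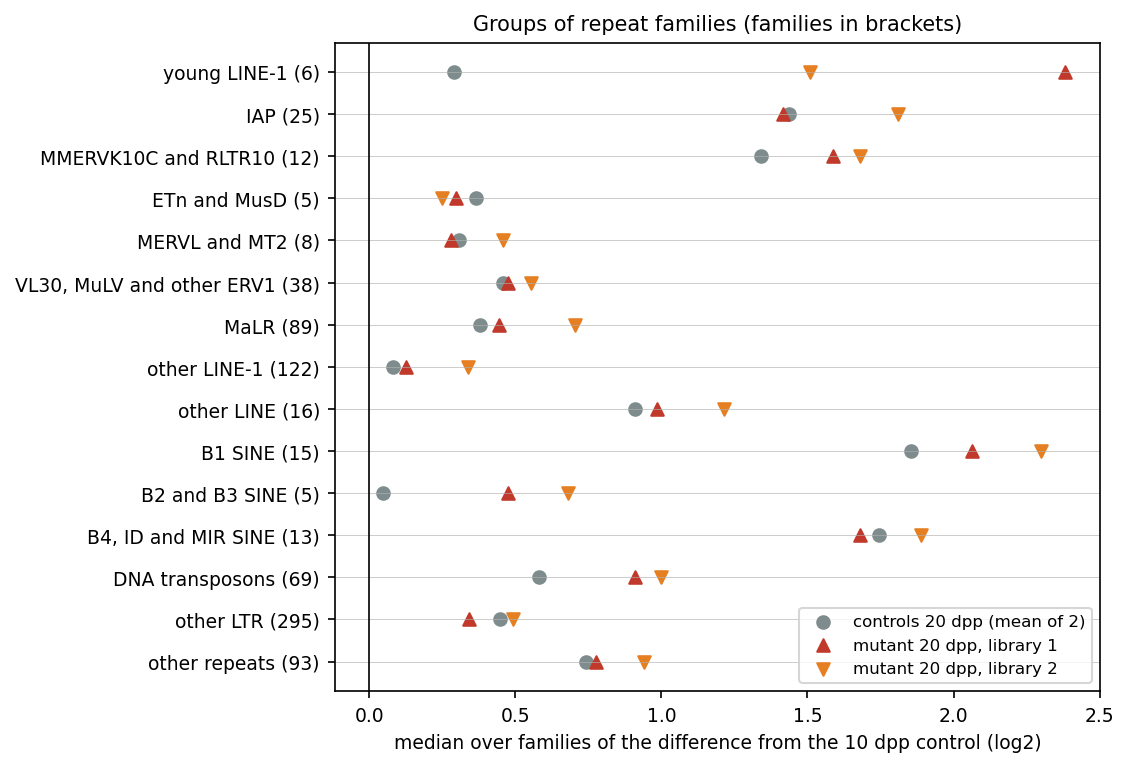
For each group of repeat families (number in brackets) the x axis gives the median log2 difference from the 10 dpp control in each 20 dpp mutant library (triangles) and in the mean of the 20 dpp controls (circles). Young LINE-1 families were at 2.38 and 1.51 in the mutants and 0.29 in the controls, while B1 SINEs were raised in both genotypes.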

How the data were processed

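RNA of whole testis was sequenced, 1 library per sample. The deposited values are on a log2 scale, log2(count divided by a library factor, plus 1), which was worked out from the values: 100% of them gave whole reads within 0.01. Per the submitters' processing notes the build was mm10 and the tools were TopHat2 2.0.6, HTSeq 0.6.1 and Bowtie 1.0.0. The recovered reads were rescaled by median-of-ratios factors over genes listed at both ages, and log2(scaled reads + 1) was fitted with limma 3.58.1 (R 4.3.3) with a variance trend, over 6 libraries in 4 groups, genes and families together. Adjustment was Benjamini-Hochberg over all genes or all families, at 0.05. The deposited unit is log2, so no count model was the main test. On simulated data the fit recovered 62% of 100 genes changed 2-fold and 100% of 100 changed 4-fold among 16578 genes, with 19 false calls. The younger control is 1 library, and its own spread was not measured. The simulation therefore cannot show how often calls of the real comparison are false or missed. Separate animals are named in no source, and the p-values therefore reflect only the spread between these libraries.

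Named items were, by rule, the genes (minimum 200 scaled reads) with the 8 largest rises and the 8 largest falls, the 2 list members of lowest p, the largest change against a list's median, the 5 widest margins beyond both ages in each direction, the 8 largest rises and 5 largest falls among families, and landmark genes and families. Syce2, Fkbp6, Ptprc, Spink8, Kdm5d, Uhrf1, Prm1, Smc1b, Rad21l, Syce1, Syce3, L1Md_F3, IAP1-MM_I-int, B1_Mm, B2_Mm1a, B3 and B3A were chosen after their values were seen. Some items that the rule names are not reported here. The members, the 26 gene lists (478 of 536 genes measured) and the 15 repeat groups were chosen with earlier results of these data known. Gene positions are from GENCODE M21 (mm10). Alternatives were other scalings, references, filters, pseudocounts, weights and left-out libraries.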

Additional observations from a re-analysis of the deposited data

How the results depend on the processing

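With both 10 dpp libraries as the reference, 3662 genes were higher and 3624 lower, and 316 families higher and 39 lower. Without the variance trend 914 genes were higher and 744 lower, and 13 families lower. With voom weights 1292 genes and 91 families were higher. With families fitted apart 267 families were higher. Scaled by total gene reads, 447 genes and 51 families were above both control ages. Leaving out 1 library at a time gave 250 to 410 genes above and 193 to 380 below both ages, and 24 to 39 families above and 0 to 1 below. Leaving out a library also loosens the rule for standing beyond both ages, which then has fewer libraries to satisfy. For the other changes the cause was not tested. Over 1427 values of the 117 named items under these alternatives, 1383 kept their direction and their side of the threshold, 37 fell short of it, 7 newly passed it and 0 changed direction. Of the 107 called items 29 lost their call under at least 1 alternative. Without the trend these included Zbtb16 (adjusted p = 0.0687), Amh (0.0511), Igf2 (0.0533) and Cldn11 (0.0653). With voom weights Spaca1 (0.0939) was lost. No paired analysis was possible because the 2 groups compared share fewer than 2 replicate numbers. The 10 dpp control is 1 library, so its own spread was not measured.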
